A study of Mus musculus with 4 samples.

Results

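The 526 probe sets described here belong to mouse chromosome 13 by their place in the numbering of the array, but carry no gene name in the deposited data. A probe set is the group of oligonucleotides whose signals are summarised into a single value for a transcript. Of the 16755 probe sets of the array, 1616 stand with a gene name in the authors' table of probe sets that passed their comparison of the genotypes, and 15139 do not. A probe set without a name was taken as a member by its nearest named probe sets with a listed chromosome. Those on either side of its number both had to lie on chromosome 13, which gave 3.14% of all probe sets and 3.47% of those without a name. Since absence from that table means that a probe set did not pass the authors' comparison, the difference between the genotypes helped to choose the members, and it is given here as a description without a test.

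Expression was measured in immortalised mouse kidney epithelial cells, with 2 arrays of Fh1Δ/Δ cells, which lack fumarate hydratase, and 2 arrays of their isogenic control cells, Fh1fl/fl. Both are cell lines on a C57BL/6 background, grown in normoxia without treatment in DMEM with 10% serum and 2 mM glutamine, to which the methods add pyruvate and uridine, with 1 µg of RNA used for each array. Each genotype is a single line, so that genotype and line cannot be told apart, and the labels call the replicates biological without saying that they were separate cultures. Fh1, the targeted gene on chromosome 1, had log2 expression values of 9.21 and 9.14 in Fh1Δ/Δ cells and of 10.48 and 10.45 in Fh1fl/fl cells, a log2 difference of -1.29 in the limma fit (SE 0.11, adjusted p = 0.00578). Whether its probes lie in the deleted part of the gene was not examined.

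Fumarate hydratase converts fumarate into malate in the tricarboxylic acid cycle, and its loss lets fumarate accumulate. Mouse chromosome 13 is known for large clusters of related genes near its centromeric end: histone genes, which package DNA, vomeronasal receptor genes, which sense pheromones, prolactin family genes, which encode hormones of the pituitary and placenta, and the serpin b genes, which encode protease inhibitors. Many of these families are silent in most tissues, while genes of general cell functions lie between and beyond the clusters.

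The numbers of the array followed the chromosome. Of the 1616 named probe sets, 243 had no chromosome in their annotation and were not used as neighbours. Of those, 15 were placed on chromosome 13 by the rule, and RefSeq lists all 15 there. The named probe sets and named genes of chromosome 13 below are the 66 whose annotation gives it. These 66 fell into 2 sweeps in number order. In the first sweep, from Adarb2 to Emb, 32 of 35 lay on the plus strand in RefSeq (GRCm38.p6) and none on the minus strand, and in the second sweep, from Akr1c18 to Nnt, 29 of 31 lay on the minus strand and none on the plus strand. The strand of the other 5 was not looked up. Within the sweeps, 63 of 64 successive pairs stood in ascending order along the chromosome. The plus-strand sweep held 226 members and the minus-strand sweep 292, with 8 between Emb and Akr1c18, where the numbering turns from the end of the chromosome back to its start. When each named probe set of chromosome 13 was left out in turn, its neighbours placed 64 of 64 on chromosome 13, and over all chromosomes 1297 of 1308 were placed correctly. With 2 named neighbours on chromosome 13 required on each side, 504 of the 526 members remained. The members filled 55 stretches between successive named genes, and no member was given a gene name from its place.

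Values are log2 expression after robust multi-array averaging (RMA), so that a difference of 1 is a doubling, and low values lie near the background of the array. Over the 4 arrays, all probe sets ranged from 1.78 to 13.72 and members from 2.11 to 12.76. The median of all members was 6.80 and 6.71 on the Fh1Δ/Δ arrays and 6.70 and 6.69 on the Fh1fl/fl arrays. Members were divided at 7.24, the median level of all probe sets over the 4 arrays, into 231 brighter and 295 dimmer members. Thus 43.9% of the members were brighter, against 47.3% of all probe sets without a name.

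Members were dimmer on the whole, though not everywhere, in the stretches that hold gene clusters. In the 9 stretches with at least 5 genes of the listed families on the strand (vomeronasal and olfactory receptors, histones, prolactin family, serpin b, cathepsin, zinc finger, aldo-keto reductase and sodium phosphate carrier genes), 61 of 187 members (32.6%) were brighter, against 166 of 331 (50.2%) in the 45 other stretches within the sweeps, a division made after the levels were seen. Between Inhba, which encodes a subunit of activin, and the core histone gene Hist1h2bc, 7 of 32 members were brighter, with a median level of 4.30. In RefSeq, the 51 coding genes listed for that stretch on the same strand include 18 vomeronasal receptor and 19 histone genes. On the other strand, between Gpr141, which encodes an orphan receptor, and Hfe, an iron regulator, 8 of 34 members were brighter, among 51 coding genes with 15 vomeronasal receptor and 21 histone genes. Between the linker histone gene Hist1h1a and Wrnip1, 5 of 24 were brighter, in a stretch with 10 prolactin family genes. Between Zcchc6 and the placental cathepsin gene Cts3, where 8 of 15 coding genes on the strand are cathepsins, 1 of 12 members was brighter. Other stretches of these 9 were bright. Between Hist1h2bc and Hist1h1a, where all 6 listed genes are histones, 3 of 4 members were brighter. Between Exoc2 and Dek, where 5 of 37 coding genes on the strand are serpin b genes, 22 of 35 were brighter. The stretches without a cluster ranged just as widely. Between Mtap1b, which encodes a microtubule-associated protein, and the nuclear import receptor gene Ipo11, 16 of 24 members were brighter, with a median level of 8.25, and between Gfm2, a factor of mitochondrial translation, and Sfrs12ip1 10 of 14 were brighter, while between Ninj1 and Iars 2 of 6 were brighter, with a median level of 4.03. Which of the genes in a stretch a member reads was not known.

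Brighter and dimmer members differed from each other in how they stood between the genotypes. The brighter members had medians of 9.02 and 8.93 on the Fh1Δ/Δ arrays and of 8.81 and 8.69 on the Fh1fl/fl arrays. Both Fh1Δ/Δ medians thus lay above both Fh1fl/fl medians. The dimmer members had medians of 5.10 and 5.27 on the Fh1Δ/Δ arrays and of 5.28 and 5.35 on the Fh1fl/fl arrays, where both Fh1Δ/Δ values were the lower ones, although 5.27 and 5.28 hardly differed. The median of the members' own differences, Fh1Δ/Δ minus Fh1fl/fl, was 0.22 in the brighter members, of which 173 of 231 (74.9%) were higher in Fh1Δ/Δ cells, and -0.14 in the dimmer members, of which 102 of 295 (34.6%) were higher. Over the 4 pairs of an Fh1Δ/Δ and an Fh1fl/fl array, the median ranged from 0.12 to 0.31 in the brighter members and from -0.24 to -0.05 in the dimmer members. The 2 ranges did not overlap. Over all 526 members the median was 0.03, and 52.3% were higher in Fh1Δ/Δ cells, beside 38.8% of all probe sets. The sign of that median turned when each array was centred on its own median (-0.062), and that of the dimmer members turned with quantile normalization (0.016), while the brighter members stayed above 0 in both (0.13 and 0.16). In bulk RNA, a transcript made by fewer cells and less of it in each cell cannot be told apart.

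The values of the whole array were spread more widely on the Fh1Δ/Δ arrays, which matters for reading the members. Their lower quartiles were 5.37 and 5.53, against 5.64 and 5.70 on the Fh1fl/fl arrays, while their medians, 7.32 and 7.26 against 7.22 and 7.18, were slightly higher. The median difference of all probe sets was -0.11, with 0.02 for the brighter and -0.22 for the dimmer ones. When the probe sets without a name were divided by level into 6 classes of like size, the members' medians from the dimmest to the brightest class were -0.14, -0.25, -0.09, 0.20, 0.26 and 0.19. Those of the other probe sets without a name placed on a chromosome were -0.17, -0.27, -0.23, 0.01, 0.02 and -0.03. The gap between them was therefore 0.04 and 0.02 in the 2 dimmest classes, 0.14 in the next, and 0.19 to 0.24 in the 3 brightest. In the fifth class, with 87 members, the share higher in Fh1Δ/Δ cells was 73.6% among members and 52.4% among the other probe sets.

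**Figure D1:**
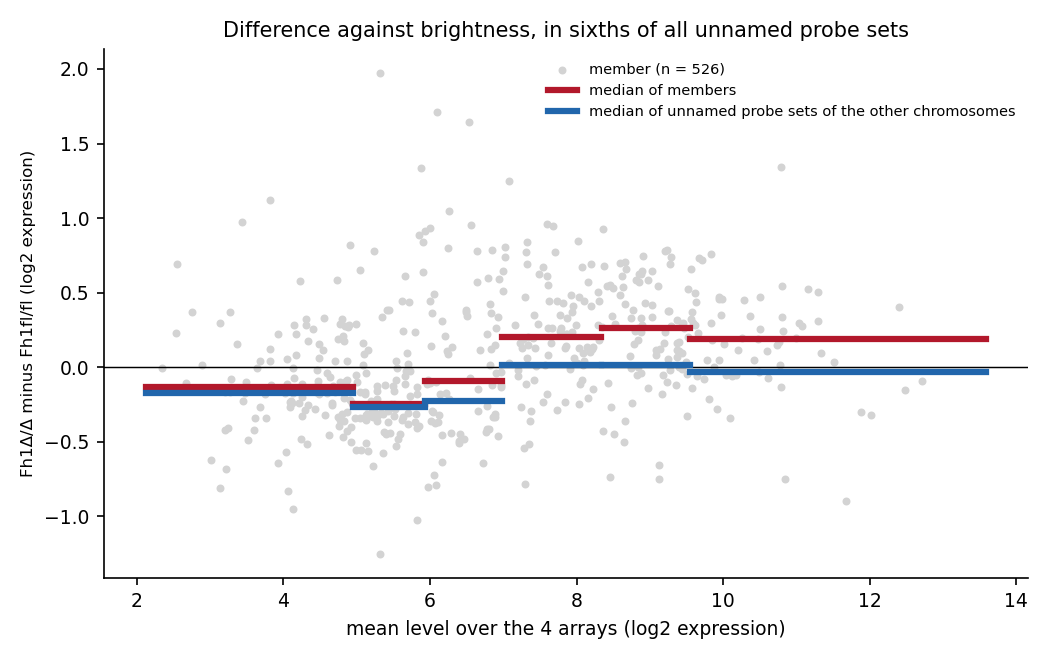
Difference between the genotypes (Fh1Δ/Δ minus Fh1fl/fl, log2 expression) against the mean level over the 4 arrays, with each of the 526 members as a grey point. Bars span 6 level classes and mark the medians of members (red) and of the other placed probe sets without a name (blue): the bars nearly coincide in the 2 dimmest classes, with gaps of 0.04 and 0.02, and stand 0.19 to 0.24 apart in the 3 brightest.

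Counted per member, both Fh1Δ/Δ arrays lay above both Fh1fl/fl arrays in 188 of 526 members (35.7%), against 25.6% of all 16755 probe sets and 22.2% of those without a name. Both lay below in 147 members (27.9%), against 40.7% and 40.5%. Among the brighter members 127 (55.0%) lay above without overlap and 30 (13%) below, against 37.4% and 32.6% of all brighter probe sets. Among the dimmer members the counts were 61 (20.7%) above and 117 (39.7%) below, against 13.7% and 48.8% of all dimmer probe sets. Because the choice of members used these same values, nothing further is read from these shares.

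Along the chromosome, the difference of the brighter members grew away from the centromeric end. Cytogenetic bands run from A, at the centromere, to D, at the far end, and 369 members lay between named genes of the same band letter. In band A, the 67 brighter members had medians of 8.97 and 8.74 on the Fh1Δ/Δ arrays and of 8.81 and 8.69 on the Fh1fl/fl arrays, so that the groups overlapped. In band D, the 45 brighter members had 9.30 and 9.04 on the Fh1Δ/Δ arrays and 8.84 and 8.70 on the Fh1fl/fl arrays, and the groups stood apart. The median of the members' differences was 0.05 in band A, 0.18 in band B (17 members), 0.28 in band C (20 members) and 0.42 in band D. The value of band A turned to -0.041 with each array centred on its median. In band A 41 of the 67 were higher in Fh1Δ/Δ cells, in band B 15 of 17, in band C 18 of 20 and in band D 34 of 45. The dimmer members showed no such order, with medians of -0.12, -0.23, -0.18 and -0.13 from band A to band D. Band and brightness went together, since 35.1% of the 191 members of band A were brighter and 62.5% of the 72 members of band D.

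The gap between bands D and A was found with each pair of arrays and on each strand, though in unlike sizes. Over both sweeps, the brighter members of band D exceeded those of band A by 0.37 in the median difference, and by 0.23 to 0.32 in the 4 pairs of arrays. The gap was 0.54 in the plus-strand sweep, with 16 members in band D, and 0.18 in the minus-strand sweep, with 29. In the plus-strand sweep the medians were 0.00, 0.31, 0.25 and 0.54 from band A to D, where band B rested on 2 members, and in the minus-strand sweep 0.19, 0.18, 0.45 and 0.37. The order of the 4 bands was thus not the same in the 2 sweeps. The 4 pairs of arrays gave gaps of 0.34 to 0.53 in the plus-strand sweep and of 0.085 to 0.16 in the minus-strand sweep. Between replicates of a genotype, taken as replicate 2 minus replicate 1, the same gap was -0.040 for Fh1Δ/Δ and -0.12 for Fh1fl/fl cells in the plus-strand sweep, and 0.075 and 0.042 in the minus-strand sweep. On the minus strand the smallest gap between genotypes was thus hardly larger than that between the Fh1Δ/Δ replicates.

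**Figure D2:**
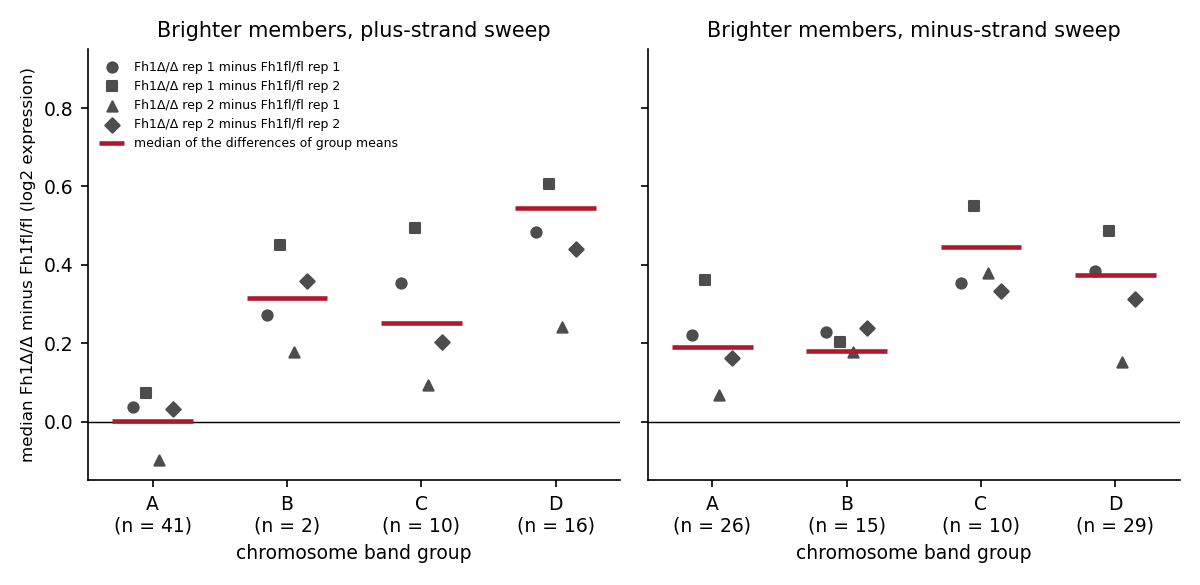
Median difference (Fh1Δ/Δ minus Fh1fl/fl, log2 expression) of the brighter members in each band group, A to D, in the plus-strand sweep (left) and the minus-strand sweep (right). Symbols give the 4 pairs of arrays and red lines the differences of the group means: band D stands above band A in both sweeps, by 0.54 and 0.18.

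With each sweep divided into 3 segments of like member number, the same direction was seen without use of the bands. In the plus-strand sweep, the brighter members had a median difference of -0.02 in the first segment, from Adarb2 to Nqo2, 0.13 in the middle segment, from Wrnip1 to Dapk1, and 0.28 in the last segment, from Dapk1 to Emb. In the minus-strand sweep the medians were 0.12 in the first segment, from Akr1c12 to Dek, 0.23 in the middle segment, from Exoc2 to Srd5a1, and 0.37 in the last segment, from Ptch1 to Nnt. Both sweeps read the chromosome from the same end and share no probe set, but they share the 4 arrays. Over all members, brighter and dimmer together, the medians were -0.11, 0.05 and 0.12 in the plus-strand sweep and 0.04, -0.05 and 0.23 in the minus-strand sweep, so that the minus-strand order was broken by its middle segment. In that segment 60 of 97 members were dimmer, with a median of -0.22. With each array centred on its median, 4 of the 6 segment medians over all members lay below 0.

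**Figure D3:**
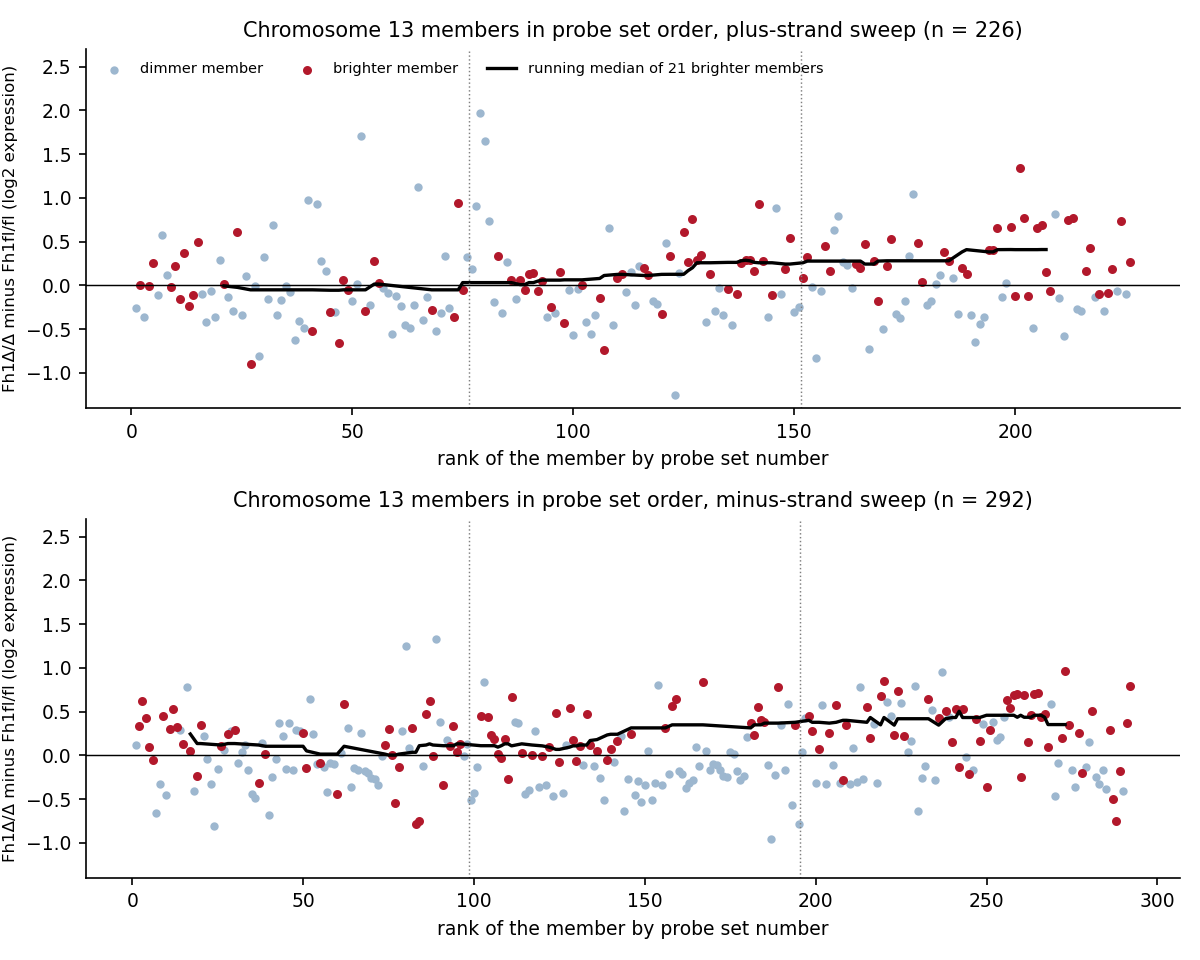
Difference between the genotypes (Fh1Δ/Δ minus Fh1fl/fl, log2 expression) of each member in number order, for 226 members of the plus-strand sweep (top) and 292 of the minus-strand sweep (bottom). Red points are brighter and blue points dimmer members, the black line is the running median of 21 brighter members, and dotted lines part the 3 segments: the line starts near 0 in the top panel and ends higher than it starts in both.

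Single stretches differed widely within this course. The largest median of brighter members among the 18 stretches with at least 5 of them lay between Gfm2 and Sfrs12ip1 in band D. Its 10 brighter members had medians of 8.96 and 8.90 on the Fh1Δ/Δ arrays and of 8.41 and 8.46 on the Fh1fl/fl arrays, and a median difference of 0.68. Of these 10, 7 were higher in Fh1Δ/Δ cells, and the other 3 were lower. Between Mtap1b and Ipo11, 14 of 16 brighter members were higher, with medians of 9.21 and 9.01 on the Fh1Δ/Δ arrays, 8.54 and 8.38 on the Fh1fl/fl arrays and 0.46 for the difference. Between Msh3, a mismatch repair gene, and Polk, which encodes a DNA polymerase that copies past lesions, all 5 brighter members were higher, with a median difference of 0.50. All 3 stretches lay in the last segments of their sweeps.

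Between Ptch1, the Hedgehog receptor gene, and the steroid reductase gene Srd5a1, 11 of 27 members were brighter and all 11 were higher in Fh1Δ/Δ cells. Their medians were 8.88 and 8.996 on the Fh1Δ/Δ arrays and 8.77 and 8.75 on the Fh1fl/fl arrays, with a median difference of 0.37, and in 10 of the 11 both Fh1Δ/Δ arrays lay above both Fh1fl/fl arrays, against 37.4% of all brighter probe sets. Of the 37 RefSeq coding genes on the strand of that stretch, 19 are zinc finger genes of the Zfp symbols. Between Iars, which encodes a tRNA synthetase, and 5133401N09Rik, 16 of 20 brighter members were higher, with a median difference of 0.26. The stretch between Exoc2 and Dek held the most brighter members, 22 of 35, with 14 of 22 higher and a median difference of 0.12.

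Of the 18 stretches, 14 had a median above 0. The lowest was that between Hist1h1a and Wrnip1, where the 5 brighter members had a median difference of -0.28. The next was that between Inhba and Hist1h2bc with 7 brighter members and -0.11. The array medians of those 7 went the other way, with 10.025 and 9.71 on the Fh1Δ/Δ arrays and 9.395 and 9.34 on the Fh1fl/fl arrays. Both stretches lie in band A. Near the other end, between Snx18 and Nnt in band D, 3 of 6 brighter members were higher and the median difference was 0.06. A high median also stood in a stretch of mostly dim members in band A. Between Wrnip1 and Nqo2, a quinone reductase gene, 6 of 7 members were higher in Fh1Δ/Δ cells, the median difference was 0.91, and 2 of the 7 were brighter. All 10 RefSeq coding genes on the strand of that stretch are serpin b genes.

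Just beyond the outermost named genes the values were as follows. The 37 probe sets without a name between the last named gene of chromosome 12, 2810452K22Rik, and Adarb2 had a median difference of -0.04. The 4 between Nnt and the first named gene of chromosome 14, Pxk, had 0.41. Neither group was counted as members, since their chromosome is not fixed by the rule.

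The largest positive difference of a member was found in probe set 6806046, between Wrnip1 and Nqo2, with values of 6.19 and 6.41 in Fh1Δ/Δ cells and of 5.29 and 3.37 in Fh1fl/fl cells. Its groups did not overlap, and its difference of 1.97 was hardly larger than the gap of 1.93 between its Fh1fl/fl arrays. Probe set 6805399, between Hist1h1a and Wrnip1, had 7.44 and 6.45 in Fh1Δ/Δ cells and 5.14 and 5.33 in Fh1fl/fl cells, a difference of 1.71 with no overlap. The largest negative differences were also in dim probe sets. Probe set 6807156, between Iars and 5133401N09Rik, had 4.15 and 5.24 in Fh1Δ/Δ cells and 5.81 and 6.09 in Fh1fl/fl cells, a difference of -1.25. Probe set 6810691, between Emb and Akr1c18, had 4.65 and 5.96 against 6.04 and 6.62, a difference of -1.03. In both, the Fh1Δ/Δ arrays differed from each other by more than 1.

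Among the brighter members the extremes were smaller. The largest positive difference, 1.34, was that of a member between Gfm2 and Sfrs12ip1 with values of 11.54 and 11.37 in Fh1Δ/Δ cells and 10.36 and 9.86 in Fh1fl/fl cells. The largest negative difference, -0.90, was that of a member between Inhba and Hist1h2bc with 11.67 and 10.78 in Fh1Δ/Δ cells and 12.21 and 12.03 in Fh1fl/fl cells. Neither overlapped between genotypes. The brightest member, between Pde4d and Mier3, hardly differed, with 12.71 and 12.62 in Fh1Δ/Δ cells and 12.76 in both Fh1fl/fl arrays. In number order, the first member was 6804686, between Adarb2 and Inhba, with a difference of -0.26, and the last was 6816371, between Snx18 and Nnt. The latter had 9.70 and 9.56 in Fh1Δ/Δ cells and 8.83 and 8.85 in Fh1fl/fl cells, a difference of 0.79.

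For a single member the difference was often not far above the spread between replicates. The median absolute difference between genotypes was 0.28 in the brighter members, against 0.16 between the Fh1Δ/Δ and 0.14 between the Fh1fl/fl replicates. In the dimmer members it was 0.29, against 0.23 and 0.20. Contrasts that share no array could be set against each other over the members. Fh1Δ/Δ replicate 1 minus Fh1fl/fl replicate 1 and the same contrast of replicates 2 correlated at r = 0.69 over the 231 brighter members, with 148 higher in both, 38 lower in both and 45 opposite. With the Fh1fl/fl arrays exchanged, r was 0.58. Over the 295 dimmer members the values were 0.45 and 0.53. Members share arrays and normalization and are not independent replicates.

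A limma fit over all 16755 probe sets, with calls at an adjusted p under 0.05, called 38 of the 526 members, 32 as higher in Fh1Δ/Δ cells and 6 as lower. In the same fit 10.3% of all probe sets were called, 6.25% as higher and 4.0% as lower. Of the probe sets without a name, 2.52% were called higher and 1.98% lower. The authors' own comparison had left all members uncalled, so that the share of members is set in part by the choice, and nothing is read from it. Of the 32 higher members, 22 were brighter. By place, 4 of 191 lay in band A, 2 of 57 in band B, 3 of 49 in band C, 11 of 72 in band D and 12 of 157 in no band group. From the first to the last segment, 2 of 76, 4 of 75 and 7 of 75 members were called higher in the plus-strand sweep. In the minus-strand sweep these were 3 of 98, 5 of 97 and 11 of 97. These counts rest on the same values as the medians along the chromosome and add no separate evidence for their order. Of the 6 lower members, 3 lay in band A and 3 in no band group. The split moved with scaling, to 25 higher and 9 lower members with each array centred on its median. Over all probe sets, higher calls then fell too, and lower calls went from 671 to 1058. With any 1 array left out, fewer members were called, but the calls over all probe sets fell as well. That fall is therefore not particular to the members.

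The named neighbours moved over a wider range. Of the 66 named probe sets of chromosome 13, 58 had the higher value in Fh1Δ/Δ cells and 8 the lower. The 15 without a chromosome in their annotation are not counted here or in the changes that follow. The largest increases were those of Akr1c18, a steroid dehydrogenase gene (log2 difference 4.08, SE 0.37, adjusted p = 0.00675 in the limma fit), Hist1h2bc (3.97, SE 0.43, adjusted p = 0.0105) and Gpr141 (3.25, SE 0.23, adjusted p = 0.00378). The largest decreases were those of Hist1h1a (-1.11, SE 0.18, adjusted p = 0.0256), Msx2, a homeobox factor gene (-1.03, SE 0.11, adjusted p = 0.0102), and Inhba (-0.79, SE 0.13, adjusted p = 0.0251). These genes stand in the table because they passed the authors' comparison on the same arrays. The 2 stretches that Hist1h2bc borders and the 2 that Gpr141 borders did not follow these increases as a whole, with median differences over all their members of -0.11 and -0.18 beside Hist1h2bc and of 0.26 and -0.01 beside Gpr141. Among the 66 named probe sets the smallest absolute difference was 0.12, and 414 of the members reached it, 224 of them higher and 190 lower. Members and named probe sets are therefore not parted by the size of the difference alone.

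Set beside the other chromosomes, the brighter members of chromosome 13 had the fourth highest median of 20 chromosomes. The medians of the brighter probe sets without a name were 0.36 on chromosome 14, 0.25 on chromosome 18, 0.24 on chromosome 15 and 0.22 on chromosome 13. On chromosome 16, where 385 probe sets without a name were placed in the same way, the 166 brighter ones had a median of -0.12 and 38.6% were higher in Fh1Δ/Δ cells. On chromosome 10, with 633, the 295 brighter ones had the lowest median of all, -0.28, and 16.6% were higher. The range over the 4 pairs of arrays was 0.12 to 0.31 on chromosome 13, -0.16 to -0.08 on chromosome 16 and -0.31 to -0.22 on chromosome 10, and these ranges did not overlap. The dimmer probe sets lay closer together, with -0.14 on chromosome 13, the highest of the 20, -0.24 on chromosome 16 and -0.27 on chromosome 10, and over the pairs of arrays their ranges overlapped. All these probe sets were chosen by the same contrast, and the chromosomes were not tested against each other.

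**Figure D4:**
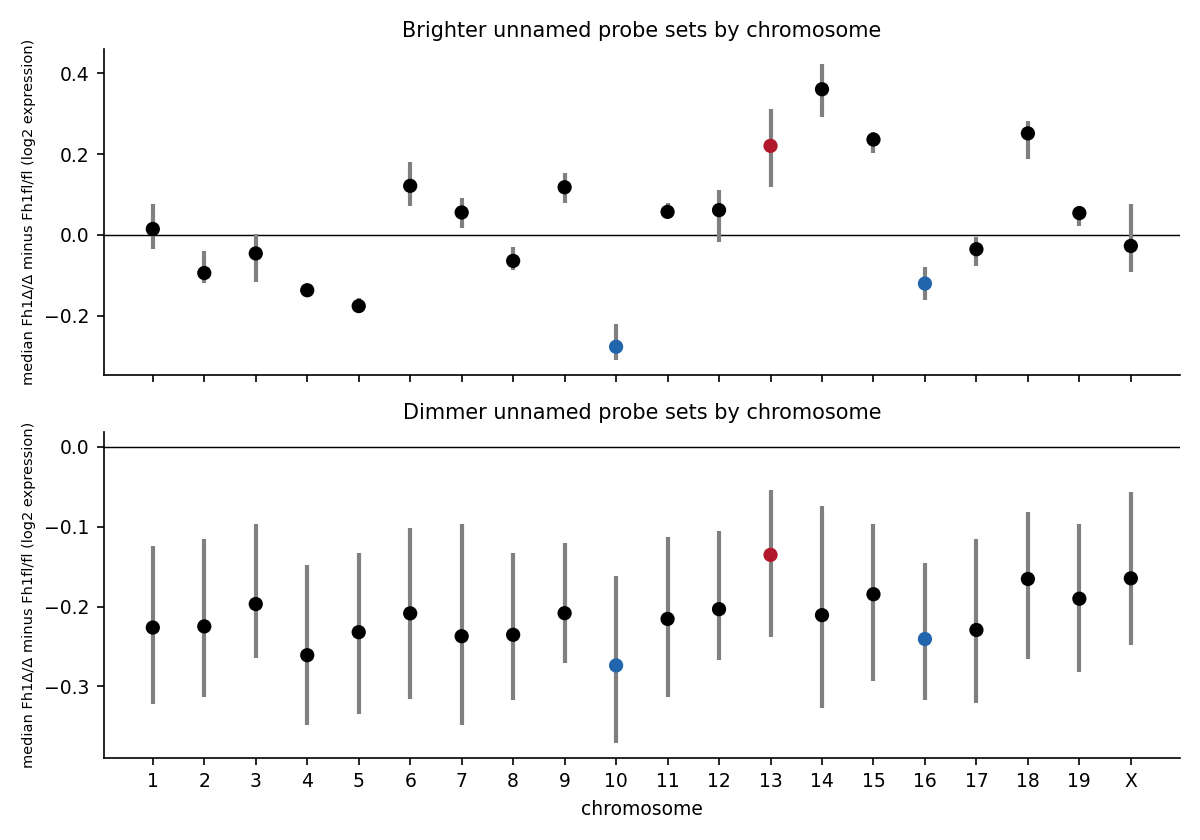
Median difference (Fh1Δ/Δ minus Fh1fl/fl, log2 expression) of the brighter (top) and dimmer (bottom) probe sets without a name on each of 20 chromosomes. Points give the median of the differences of group means and lines the range over the 4 pairs of arrays; chromosome 13 is red, with 0.22 and -0.14, and chromosomes 10 and 16 are blue.

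The labelled cell type could be checked only in small part. Of 12 markers of kidney epithelium, only Slc12a1 has a name, with values of 4.33 and 4.38 in Fh1Δ/Δ cells and of 4.67 and 4.72 in Fh1fl/fl cells, below the lower quartile of every array. No member of lists of 5 stroma, 3 endothelium and 4 leukocyte markers has a name, so the part of other cell types in these results was not tested.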

How the data were processed

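RMA, Partek and build mm9 are named, without versions, in the processing notes of the submitters. The authors deposited log2 expression values per probe set, normalized between arrays, and these were used without further scaling. Gene names and bands come from the authors' deposited table of their own comparison, whose p-values, adjusted p-values and fold changes were not used; 12 columns of other arrays were not used. RefSeq genes of GRCm38.p6 gave strand, order and gene families only, and all 66 named probe sets of chromosome 13 were matched, 11 under another current symbol.

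Members, lists and splits were chosen with earlier results of these data known. The named probe sets are the borders of stretches, the 3 largest changes of chromosome 13 in each direction and Fh1; of members, only the first, the last and the 2 extremes in each direction are printed by number.

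All 16755 probe sets were fitted in R 4.3.3 by lmFit and eBayes of limma 3.58.1 (genotype as the only term, prior of 3.45 and residual of 2 degrees of freedom, Benjamini-Hochberg adjustment over all probe sets, no filter on dim values). The fit was also run on data simulated from its own variance model, which cannot test the calls made on these arrays. Medians were computed in Python 3.11.15 with pandas 2.3.3. Replicates correlated at 0.992 for both genotypes, across probe sets, which are not independent. With 2 arrays against 2, precision is limited by their number, an exact permutation test cannot give a p below 0.333, and p-values cover no spread other than that between these arrays. Alternatives were each array left out, median centring, quantile normalization, stricter placement, filters on dim values, other brightness splits, removal of the trend with level, a replicate block, other tests and other thresholds.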

Additional observations from a re-analysis of the deposited data

How the results depend on the processing

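The median difference of the brighter members stayed above 0 under all 9 alternatives, while that of all members and of the dimmer members depended on scaling. Centring each array on its median lowered the median difference to -0.062 for all members (45.6% higher). For the brighter members it became 0.13 and for the dimmer ones -0.23. The share above without overlap fell to 29.1%, and the same share over all probe sets was not computed after centring. The segment medians over all members became -0.20, -0.042 and 0.026 in the plus-strand sweep. In the first and middle segments of the minus-strand sweep they became -0.055 and -0.14. By construction centring left the gaps between bands or chromosomes as they were. Quantile normalization gave 0.076 for all members (59.5% higher) and 0.016 for the dimmer ones. Over all members of a segment it gave -0.025 for the first plus-strand segment and 0.12 and 0.018 for the first and middle minus-strand segments. Segment medians of the brighter members alone were not computed under any alternative. Band B went from 0.18 to 0.088 with centring and to 0.14 with quantile normalization; the alternatives for bands were chosen after seeing the data. Without the dimmest 25% or 50% of probe sets the median of all members was 0.16 (65.2% higher) or 0.22 (74.9%), the mean was 0.064, and without the trend with level the median was 0.13 (64.4% higher).

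With 1 array left out, the median ranged from 0.017 to 0.074 for all members (52.5% to 55.7% higher), from 0.15 to 0.28 for the brighter and from -0.18 to -0.09 for the dimmer ones. The share above without overlap was 40.7% to 47.5%, higher because fewer arrays must be cleared. The same share over all probe sets was not computed with an array left out, so nothing is read from it. Over all members, the medians of the plus-strand segments ranged from -0.16 to -0.044, from -0.0073 to 0.086 and from 0.066 to 0.16. Those of the minus-strand segments ranged from 0.032 to 0.072, from -0.063 to 0.017 and from 0.17 to 0.28. The medians of the brighter members in bands A to D ranged from 0.0026 to 0.13, 0.10 to 0.21, 0.24 to 0.39 and 0.28 to 0.47, each lowest without Fh1Δ/Δ replicate 1.

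The count of 38 called members depended on the test. It ranged from 2 to 15 with 1 array left out, and was 0 at an adjusted p under 0.01 and 114 under 0.1, 92 by limma with trend and robust settings, and 87 or 92 without the dimmest 25% or 50%. Over all 16755 probe sets, 197 higher and 51 lower calls were made under 0.01, and 1899 and 2032 under 0.1. With trend and robust settings these were 1856 and 1472. Without the dimmest 25% they were 1756 and 1534 of 12566 probe sets, with 345 members tested. Without the dimmest 50% they were 1697 and 1246 of 8377, with 231 members tested. The calls thus moved over the whole array too, which is not particular to the members. An unmoderated test called 0 members and 0 probe sets over the whole array. In that test 78 of 526 members had an unadjusted p under 0.05, beside 3671 of all 16755 probe sets. By limma 175 members did, beside 5724 of all probe sets. With the replicate number as a block 56 members were called, 32 of them among the 38, beside 1011 higher and 756 lower calls over all probe sets. With 2 numbers, deviations of same-numbered arrays correlated at 0.11 over all probe sets, 0.09 over the members and 0.20 over the brighter members. The numbers were not taken as pairs.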
